A study of Mus musculus with 2 samples.

Results

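Laminins, integrins and their basement membrane partners were examined in total RNA-seq of adrenal glands from newborn mice. The genes were the 11 laminin chains, 24 integrin subunits (16 alpha and 8 beta), the nidogens Nid1 and Nid2, perlecan (Hspg2), agrin (Agrn) and dystroglycan (Dag1). They were chosen by symbol, and all 40 were found among 43346 Ensembl gene rows, 21474 of them with a protein-coding symbol. There were 2 libraries from B6NCrl mice at postnatal day 0, each from both adrenals of 1 pup, with 10 ng of RNA as input and spike-in transcripts added. The labels give no genotype or treatment, the same number for the pregnant animal in both cases, and a sex that was not collected. Both libraries form 1 group, so the design holds no contrast between conditions and the text prints no p-value. Values are per pup or mean ± SD (n = 2), and the SD measures the spread between these 2 pups.

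A basement membrane is a thin protein sheet under epithelia and around vessels, nerves, muscle fibres and fat cells. Each laminin is a trimer of 1 alpha, 1 beta and 1 gamma chain, and its number names the chains in that order. Laminins polymerise on the cell surface, and nidogens and perlecan join them to the network of collagen IV. Cells hold the sheet through integrins, which pair 1 alpha with 1 beta subunit, and through dystroglycan, which binds laminin, agrin and perlecan by its sugar chains. In the adrenal gland such sheets lie around the sinusoidal vessels of the cortex, around its cells, and around nerve fibres of the medulla.

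The libraries held 41504343 and 40799478 estimated counts in pups 1 and 2, of which the 40 genes took 0.254% and 0.275%. All 7 markers of steroidogenic cortex were present, led by Hsd3b1 (2469 and 4997 TPM) and Cyp21a1 (1530.5 and 4988 TPM), so the tissue matched its label. TPM is a transcript abundance relative to the whole library and corrected for transcript length. These markers summed to 6435 TPM in pup 1 and to 17160 in pup 2. Marker levels differed between the pups, with neuron markers at 1093 and 347 TPM, endothelial markers at 158 and 300 TPM, and stroma and capsule markers at 1841 and 1646 TPM. Liver (2816 and 2163 TPM), skeletal muscle (56.0 and 231 TPM) and kidney markers (2.05 and 10.9 TPM) were also read. In bulk tissue, fewer cells of a type and less RNA per cell cannot be told apart. Of the 40 genes, 29 reached TPM 1 in both pups, against 60.5% of all protein-coding genes. The 5 that did so in 1 pup only (among them Lama1, Lamc3, Itga4 and Itga11) were all above it in pup 2. By the scaled counts described below, the log2 ratio intervals of Itga4 (-0.02 to 0.50) and Itga11 (-0.20 to 0.375) included 0. Those of Lama1 and Lamc3 did not. The 6 below it in both were Itga10, Itgal, Itgae, Itgax, Itgb6 and Itgb7.

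**Figure D1:**
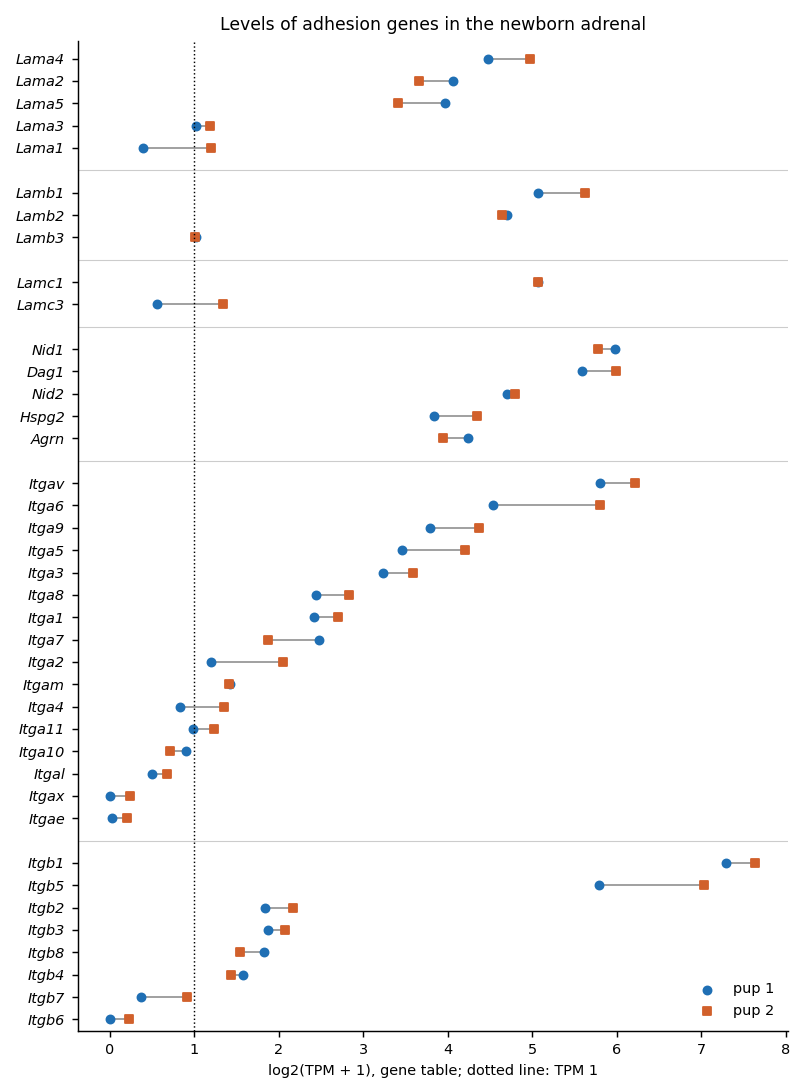
Levels in each pup as log2(TPM + 1), in families separated by lines (laminin alpha, beta and gamma chains; nidogens, perlecan, agrin and dystroglycan; integrin alpha and beta subunits), with each point a library and a dotted line at TPM 1. Itgb1 stood highest at 156 and 199 TPM, and Itgax and Itgb6 were listed at 0 in pup 1.

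Among laminin alpha chains, Lama4 led. Lama4, a chain of vessel and fat cell basement membranes with a truncated short arm (ENSMUSG00000019846.7, chromosome 10, 38965515 to 39110188, plus strand, mm10), had 21.3 TPM in pup 1 against 30.5 in pup 2. It held 48.2% ± 11.2 of the summed alpha chain TPM (SD, n = 2). Lama2, the alpha chain of muscle fibre and Schwann cell basement membranes, had 15.7 and 11.6 TPM, and its range did not overlap that of Lama4. Lama5, an alpha chain of epithelial and vessel basement membranes (ENSMUSG00000015647.9, chromosome 2, 180176373 to 180225859, minus strand), had 14.6 and 9.68 TPM. Lama2 was above Lama5 in both pups, but their ranges overlapped. Lama3, an alpha chain of epithelial laminins, stood far lower at 1.03 and 1.27 TPM. Lama1, an alpha chain of the early embryo, had 0.31 and 1.29 TPM and changed place with Lama3 between the pups.

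Lamb1 and Lamb2 were both abundant beta chains, and Lamc1 was nearly the sole gamma chain by TPM. Lamb1, the beta chain of laminin-411 and laminin-511 (ENSMUSG00000002900.11, chromosome 12, 31265234 to 31329644, plus strand), had 32.4 TPM in pup 1 against 48.6 in pup 2. Lamb2, its alternative in laminin-421 and laminin-521, had 25.0 and 23.97 TPM, below Lamb1 in both pups with no overlap of the ranges. Lamb3, a beta chain of epithelial laminin, had 1.03 and 1.01 TPM. For Lamb3 the deposited TPM lay below the quantifier's own interval in both pups (1.14 to 2.25 and 1.17 to 2.48 TPM). Lamc1 (ENSMUSG00000026478.10, chromosome 1, 153218922 to 153332786, minus strand) had 32.7 and 32.5 TPM, or 93.1% ± 3.97 of the gamma chain TPM (SD, n = 2). Lamc3, a rarer gamma chain, had 0.47 and 1.54 TPM. Its range lay far below that of Lamc1.

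These genes differed widely in how much of their TPM came from transcripts that can encode most of the protein. The annotation holds short partial and intron-retaining transcripts, and the same number of reads gives a higher TPM on a short transcript than on a long one. TPM was therefore also summed over transcripts whose coding sequence is at least 50% of the longest of the gene, called coding transcripts here, a measure chosen after the data were seen. For Lama5, the coding transcript took 80.6% of counts in pup 1 and 86.6% in pup 2 but 14.4% and 20.6% of TPM. The rest of its TPM lay in 3 processed transcripts of 451, 478 and 734 bases. By coding transcripts, Lama5 had 2.10 and 1.99 TPM, Lama2 6.98 and 5.0 TPM, and Lama4 11.3 and 15.9 TPM. The order of these 3 chains was the same by both measures, but Lama5 fell from a share of 22.7% ± 6.92 to 8.74% ± 1.29 of the alpha chain TPM (SD, n = 2).

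The largest such gap belonged to Itgav, the alpha subunit of receptors for RGD-containing matrix proteins (ENSMUSG00000027087.7, chromosome 2, 83724397 to 83806916, plus strand). It had 54.7 and 73.6 TPM over all transcripts, the highest mean of the 16 alpha subunits. Of this, 46.3 and 59.6 TPM lay in a single transcript of 463 bases (ENSMUST00000131192.1) that held 680 and 711 counts. Its coding transcripts had 5.67 and 9.53 TPM, which put it at place 5 among the alpha subunits. Of the 29 genes at TPM 1 in both pups, 8 had under 50% of their TPM in coding transcripts in both, against 10.1% of 12975 protein-coding genes at that level. These were Lama2, Lama5, Itgav, Itga6, Itgam, Itgb8, Agrn and Hspg2. For Itgam, a transcript of 4310 bases held 58.0% and 46.7% of its TPM. It is absent from GENCODE M21, the source of coding lengths, and was scored as non-coding for that reason only. The same was true of a Lamb1 transcript of 2318 bases, which held 26.5% and 18.1% of the TPM of Lamb1.

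**Figure D2:**
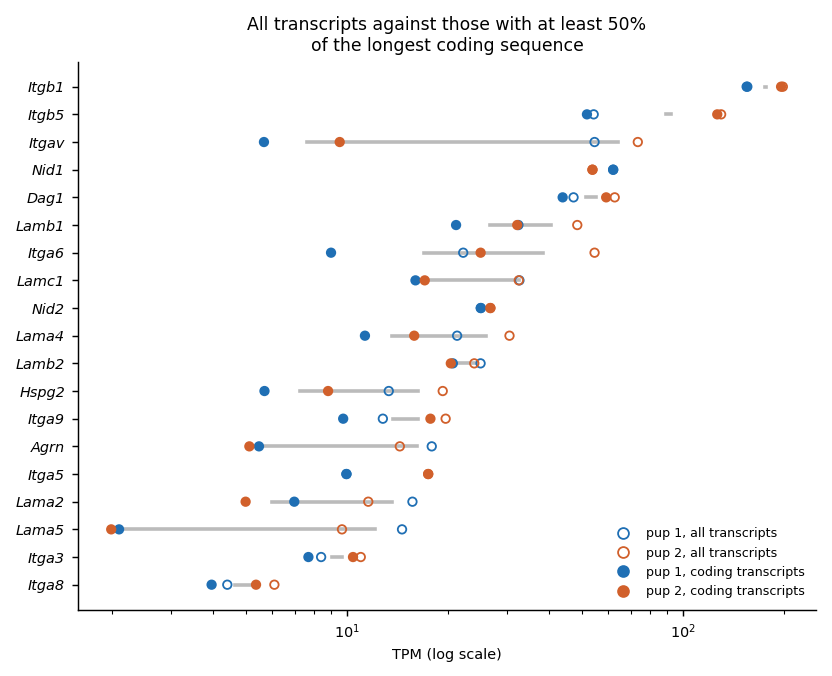
TPM on a log scale for the genes with a mean of at least 5 TPM, with open circles for all transcripts and filled circles for coding transcripts in pup 1 (blue) and pup 2 (orange), and grey bars between the means of the 2 measures. Itgav (64.1 against 7.6 TPM on average) and Lama5 (12.1 against 2.05 TPM) show the widest gaps.

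The level of the scarcest chain sets an upper limit, in RNA, on each trimer, but does not show which cells hold which chain. Of 15 known trimers, 8 had every chain at TPM 1 or more in both pups, and the alpha chain was the scarcest in both pups for 9. Laminin-411 (Lama4, Lamb1, Lamc1) had the highest mean limit, 21.3 TPM in pup 1 against 30.5 in pup 2, set by Lama4. Laminin-421 had the same limit in pup 1 and was limited by Lamb2 in pup 2 (23.97 TPM). By coding transcripts Lama4 limited both trimers equally, at 11.3 and 15.9 TPM. Laminin-211 and laminin-221 were limited by Lama2 (15.7 and 11.6 TPM). Laminin-511 and laminin-521 were limited by Lama5 at 14.6 and 9.68 TPM, or 2.10 and 1.99 TPM by coding transcripts. Laminin-311 and laminin-321 stood at 1.03 and 1.27 TPM, limited by Lama3. Markers of stratified epithelium, led by Krt14 and Krt4, summed to 18.4 and 8.61 TPM with 1 of 7 at TPM 1 in both pups, and their part in the values of Lama3 and Lamb3 was not tested. Trimers with Lama1 as the scarcest chain (laminin-111 and laminin-121) stood at 0.31 and 1.29 TPM, and those with Lamc3 (laminin-213, laminin-423 and laminin-523) at 0.47 and 1.54 TPM.

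**Figure D3:**
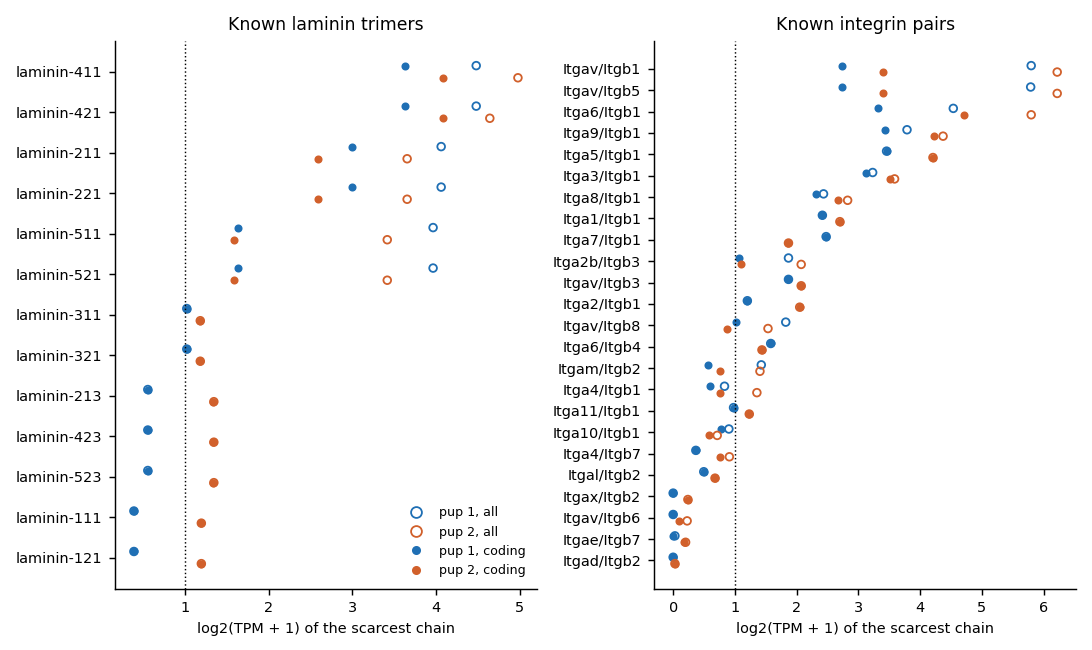
log2(TPM + 1) of the scarcest chain of known laminin trimers and integrin pairs in pup 1 (blue) and pup 2 (orange), over all transcripts (open) and coding transcripts (filled), with a dotted line at TPM 1. Laminin-411 has 21.3 and 30.5 TPM over all transcripts, level with laminin-421 in pup 1 and above it in pup 2, and the 2 leading integrin pairs, both with Itgav, fall to 5.67 and 9.53 TPM by coding transcripts.

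Among the linker proteins, Nid1 was the most abundant by mean TPM. Nid1, which bridges laminin gamma chains and collagen IV (ENSMUSG00000005397.7, chromosome 13, 13437551 to 13512269, plus strand), had 62.1 and 53.9 TPM from 1 transcript. Its paralog Nid2 had 25.1 and 26.8 TPM, below Nid1 in both pups with no overlap. Perlecan, the heparan sulfate proteoglycan Hspg2, had 13.3 and 19.3 TPM, of which 5.69 and 8.80 TPM lay in coding transcripts. A transcript of 820 bases (ENSMUST00000155648.1) held 7.65 and 10.5 TPM of it. Among 8 further collagens of basement membranes, 7 reached TPM 1 in both pups. Col4a1 (90.6 and 118 TPM) and Col4a2 (46.0 and 61.7 TPM), the chains of the common collagen IV network, led them. Col18a1 (23.6 and 34.3 TPM) and Col4a5 (4.74 and 8.55 TPM) followed, and Col4a6 was below TPM 1 in both (0.28 and 0.53). Of 16 other basement membrane genes, 13 reached TPM 1 in both pups. They were led by Sparc (1932 and 3840 TPM), a collagen-binding glycoprotein, Smoc2 (122 and 70.1 TPM), Fbln2 (49.6 and 55.3 TPM) and Fbln1 (35.2 and 45.7 TPM), whereas Ntn4, Frem2 and Frem3 stayed under TPM 1.

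Agrin was quantified in forms with and without the short exons that give it its synaptic activity. Agrin made by nerve cells carries an insert at a site called y, which bears on heparin binding, and inserts at a site called z, without which it clusters acetylcholine receptors poorly. In the mouse annotation (Agrn, ENSMUSG00000041936.14, chromosome 4, 156165290 to 156197488, minus strand) one transcript, ENSMUST00000105575.4, holds 3 such coding exons of 12, 24 and 33 bases. They are shown because these letters, in capitals, set that transcript apart. Each line runs 5′ to 3′ on the gene's strand with 20 bases of neighbouring exon on either side in lower case, read from GENCODE M21 transcripts on mm10.
Agrn y exon, chr4:156169546-156169557: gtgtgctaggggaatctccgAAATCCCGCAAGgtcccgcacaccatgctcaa
Agrn junction without it: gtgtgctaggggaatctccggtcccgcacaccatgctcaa
Agrn z exons, within chr4:156167777-156168569: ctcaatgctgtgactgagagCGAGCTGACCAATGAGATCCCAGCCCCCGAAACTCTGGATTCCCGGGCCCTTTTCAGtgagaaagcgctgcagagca
Agrn junction without them: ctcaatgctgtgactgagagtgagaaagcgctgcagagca

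The transcript with the short exons was assigned counts in pup 1 and listed at 0 in pup 2. It has 7262 bases and its counterpart Agrn-202 has 7193, so its counts rest mostly on how the quantifier divided shared reads. Reads on the short exons themselves were not examined. It had 353 estimated counts and 1.22 TPM in pup 1 (quantifier's interval 0.651 to 1.72) and 0 counts in pup 2, where the interval reached 0.364 TPM. The 2 intervals did not overlap. It held 22.3% of the TPM of coding Agrn transcripts in pup 1 and was listed at 0 in pup 2. Agrn-206, with another start and none of the inserts, led the coding transcripts with 3.68 and 3.82 TPM. Agrn-202, the counterpart of the insert-bearing transcript without inserts, had 0.58 and 1.31 TPM with overlapping intervals (0.0118 to 1.09 and 0.108 to 1.61). Over all transcripts Agrn had 17.9 and 14.4 TPM, mostly in an intron-retaining transcript (63.7% and 60.7%). The 5 neuron markers, led by Stmn2 (366 and 113 TPM) and Gap43 (292 and 97.9 TPM), were all higher in pup 1, and their part in the short-exon form was not tested. Of 4 genes of the agrin receptor pathway, Dok7 (2.29 and 4.71 TPM), Lrp4 (3.08 and 2.96 TPM) and Rapsn (1.80 and 2.64 TPM) reached TPM 1 in both pups. Musk, the kinase of the receptor, did not (0.43 and 0.30 TPM).

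**Figure D4:**
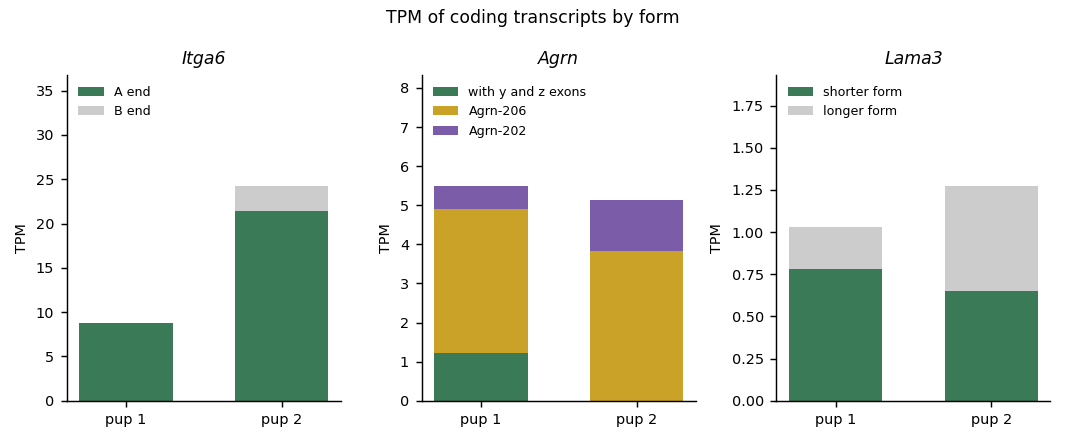
TPM of coding transcripts stacked by form in each pup for Itga6 (A and B ends), Agrn (with the y and z exons, Agrn-206 and Agrn-202) and Lama3 (shorter and longer form). The Itga6 bars leave out a further coding transcript, Itga6-207, with 0.20 TPM in pup 1 and 0.86 in pup 2. The insert-bearing form of Agrn shows 1.22 TPM in pup 1 and none in pup 2, and the A end of Itga6 makes up most of both bars.

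Itgb1 was the most abundant integrin gene. Itgb1, the common partner of many alpha subunits (ENSMUSG00000025809.11, chromosome 8, 128685654 to 128733200, plus strand), had 156 and 199 TPM. It held 64.6% ± 8.74 of the summed beta subunit TPM (SD, n = 2). Itgb5, which pairs with Itgav, was next at 54.4 TPM in pup 1 against 130 in pup 2. The ranges of these 2 did not overlap each other or those of other beta subunits. The other 6 lay at or below 3.51 TPM in both pups. Itgb2, of leukocytes (2.56 and 3.51 TPM), and Itgb3, of platelets and other cells (2.65 and 3.21 TPM), changed place between the pups. Itgb8 (2.54 and 1.90 TPM), a partner of Itgav in the activation of TGF-beta, and Itgb4 (1.99 and 1.71 TPM), the hemidesmosome subunit, had overlapping ranges. Itgb7 of leukocytes had 0.29 and 0.88 TPM. Itgb6, of epithelia, was listed at 0 in pup 1 and at 0.17 TPM in pup 2.

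Every alpha subunit of the laminin-binding integrins was read, with Itga6 ahead. Itga6, which pairs with Itgb1 and Itgb4 (ENSMUSG00000027111.11, chromosome 2, 71745616 to 71858416, plus strand), had 22.2 TPM in pup 1 against 54.7 in pup 2. By coding transcripts it had 8.98 and 25.0 TPM, the highest mean of the alpha subunits, although Itga5 and Itga9 were above it in pup 1. Itga3, which binds laminin-511 among others, had 8.39 and 11.01 TPM. Its range did not overlap that of Itga6 over all transcripts, but by coding transcripts (7.69 and 10.4 TPM) it did. Itga7, of muscle, had 4.57 and 2.65 TPM. As a partner, Itgb1 exceeded each of these alpha subunits in both pups, so the alpha subunit was the scarcer chain in the pairs of Itgb1 with Itga3, Itga6 and Itga7. In the pair of Itga6 with Itgb4 the scarcer chain was Itgb4.

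Itga6 has 2 alternative ends, named A and B, which replace most of the tail inside the cell. The A end comes from an exon of 130 bases that the B transcript skips. The coding part of each end is printed because the 2 forms differ there, 5′ to 3′ from GENCODE M21 on mm10, plus strand, with the stop codon in capitals.
Itga6 A end, chr2:71853534-71853641: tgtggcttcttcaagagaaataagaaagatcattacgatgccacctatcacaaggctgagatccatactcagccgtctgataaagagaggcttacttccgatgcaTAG
Itga6 B end, chr2:71855854-71856015: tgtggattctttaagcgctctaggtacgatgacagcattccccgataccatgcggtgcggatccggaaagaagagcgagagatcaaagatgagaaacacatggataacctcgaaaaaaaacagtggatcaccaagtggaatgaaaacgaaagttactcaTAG

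The first 18 bases of the ends match at 14 positions. The A end has 105 coding bases before its stop and the B end 159. The transcript with the A end had 8.78 TPM in pup 1 against 21.4 in pup 2, and that with the B end was listed at 0 in pup 1 and had 2.81 TPM in pup 2. The quantifier's intervals of the B transcript overlapped (8.52e-05 to 1.18 in pup 1 and 0.0212 to 4.8 in pup 2). By deposited TPM the A end held 94.2% ± 8.2 of the TPM of both ends (SD, n = 2), or 92.2% by posterior means. For Itga3, 1 transcript (ENSMUST00000001548.9) held 97.5% and 99.2% of coding TPM. For Itgb1, 1 transcript held 99.5% and 98.8% of all TPM. Lama3 divided between a shorter form (0.78 and 0.65 TPM) and a longer one (0.25 and 0.62 TPM), so the shorter form held 75.7% in pup 1 and 51.2% in pup 2.

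Receptors for fibronectin and other RGD proteins were also present. Itga5, the fibronectin receptor subunit, had 9.98 and 17.5 TPM, all in 1 coding transcript. Itga9, which binds tenascin and other ligands, had 12.8 and 19.7 TPM, and its range overlapped that of Itga5. Itga8, a receptor for nephronectin, had 4.41 and 6.09 TPM. Itga4, of leukocytes and some mesenchyme, had 0.78 and 1.56 TPM. For the pair of Itgav with Itgb5 the scarcer chain was Itgb5 in pup 1 (54.4 TPM) and Itgav in pup 2 (73.6 TPM). By coding transcripts Itgav was the scarcer in both, at 5.67 and 9.53 TPM against 51.9 and 127 TPM for Itgb5. The pairs of Itgav with Itgb3 (2.65 and 3.21 TPM) and Itgb8 (2.54 and 1.90 TPM) were limited by the beta subunit.

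Collagen-binding alpha subunits stood in the order Itga1, Itga2, Itga11 and Itga10 by mean TPM. Itga1 had 4.34 and 5.50 TPM and did not overlap Itga2, which had 1.30 and 3.14 TPM. Itga11, of fibroblasts, had 0.97 and 1.35 TPM and overlapped Itga2. Itga10, known from cartilage, had 0.87 and 0.64 TPM. Among the leukocyte subunits, Itgam had 1.69 and 1.65 TPM and Itgal 0.41 and 0.60 TPM. Itgax and Itgae, at 0 and 0.18 TPM and at 0.02 and 0.15 TPM, were close to the limit of detection. Markers of myeloid and lymphoid cells, led by S100a8 (483 and 248 TPM) and Lyz2 (225 and 138 TPM), summed to 1229 and 787 TPM, with 9 of 10 at TPM 1 in both pups. Of 24 known integrin pairs, 15 had both chains at TPM 1 or more in both pups, and the alpha subunit was the scarcer in both pups for 17. Itga2b, the platelet partner of Itgb3 and not among the 40 genes, had 10.5 and 8.05 TPM (1.09 and 1.15 TPM by coding transcripts). The platelet markers summed to 480 and 389 TPM, nearly all from Pf4 (467 and 372 TPM), followed by Ppbp (7.05 and 11.9 TPM).

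Dystroglycan was among the most abundant receptors. Dag1 (ENSMUSG00000039952.11, chromosome 9, 108204634 to 108263958, minus strand) had 47.3 TPM in pup 1 against 62.8 in pup 2, of which 92.8% and 94.3% lay in coding transcripts. Of 20 genes of the dystroglycan complex and of the enzymes that build its laminin-binding sugar, 18 reached TPM 1 in both pups. Sgce, a sarcoglycan (70.0 and 86.8 TPM), and B4gat1 (30.0 and 40.2 TPM) and Pomgnt1 (24.2 and 31.8 TPM), which act in the sugar chain, were among the highest. At least 2-fold higher in pup 2 by scaled counts were 3 of the 20, against 6.03% of all genes, among which Sntb1 had 3.62 and 12.5 TPM and Sgca 0.3 and 1.1 TPM. All 9 genes listed as other laminin-binding or matrix receptors reached TPM 1 in both pups. They were led by Rpsa (385 and 392 TPM), which is also a ribosomal protein, Sdc2 (57.9 and 79.9 TPM), the tetraspanin Cd151 (46.2 and 59.9 TPM) and the syndecan Sdc3 (38.0 and 48.0 TPM).

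Most of the 40 genes lay less than 2-fold apart between the pups. The ratio was taken as log2 of pup 2 over pup 1 from counts scaled by TMM, a method that sets the bulk of genes level. A mean of 10 or more counts was required, which 39 genes met and Itgb6 did not. Of these, 6 were at least 2-fold higher in pup 2, against 6.03% of all 18654 genes, and 1 was at least 2-fold higher in pup 1, against 9.75%. In either direction, 15.8% of all genes lay that far apart. By sign, 23 were higher in pup 2, against 50.2% of all genes, and 16 in pup 1. By scaled counts the median log2 ratio of the 39 was 0.08, beside 0.00 over all genes. It is the same with Itgax set to its bound. For 10 of the 39 the exact binomial 95% interval of the ratio, which covers counting error only, included 0. No share of all genes was taken for this number. By ratios of deposited TPM, 26 of 38 were higher in pup 2, also without a share of all genes by that measure. Ratios of TPM stood above ratios of scaled counts, with a median excess of 0.39 (log2) over all genes. A gene such as Lamc1, level by TPM, thus had a log2 ratio of -0.32 by scaled counts. With spike-ins as the scale, the all-gene median shifts by 2.57, so every direction here is relative to the bulk of genes.

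**Figure D5:**
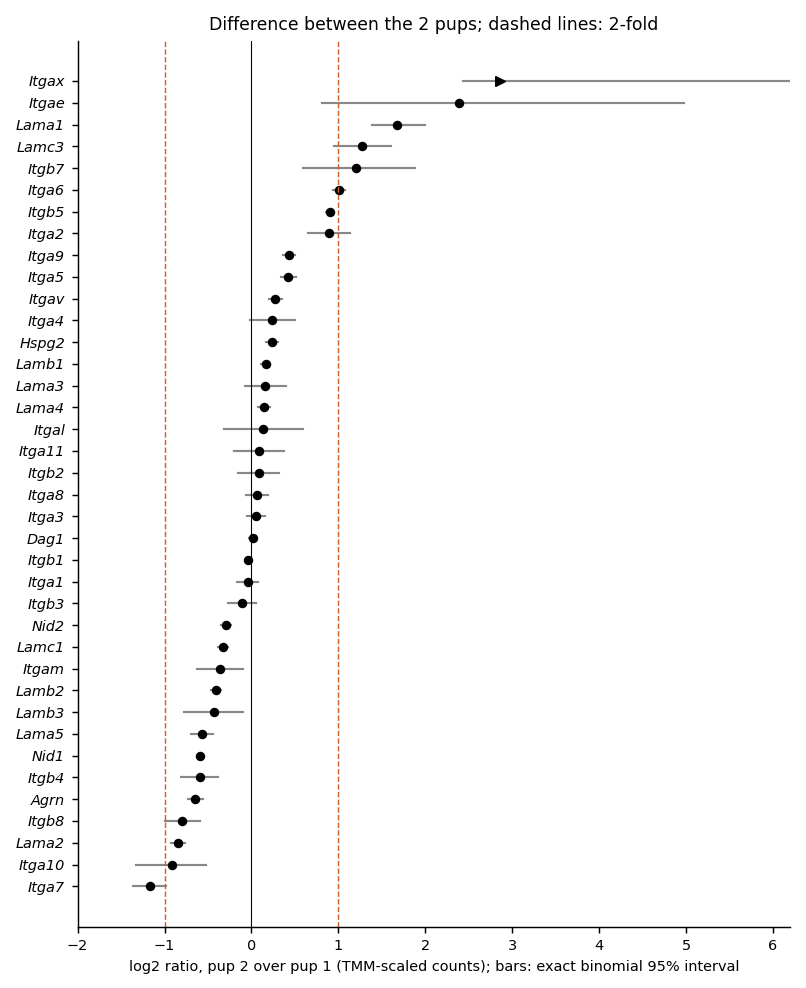
log2 ratio of pup 2 over pup 1 for genes that averaged 10 or more counts, as points with exact binomial 95% intervals (counting error only), dashed lines at 2-fold, and an arrowhead for Itgax set against a floor of 3 counts, whose interval has no upper end. Itga7 lies beyond 2-fold on the left, and Itga6, Itgb7, Lamc3, Lama1, Itgae and Itgax on the right.

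Among the abundant genes, Itga6 and Itgb5 lay furthest apart, both higher in pup 2. Itga6 had 2459 and 5230 counts, a log2 ratio of 1.00 with an interval of 0.94 to 1.07, so it stood at the 2-fold limit. Itgb5 had 6277 and 12448 counts and a log2 ratio of 0.90 (0.86 to 0.95), just inside it. In the same direction, the 7 steroidogenic markers had a median log2 ratio of 1.18. The 8 endothelial markers, led by Plvap (42.6 and 97.9 TPM) and Emcn (41.7 and 63.0 TPM), had a median of 0.73. Of these, 7 were higher in pup 2 and 1, Cdh5 (-0.45), in pup 1. Medians were also positive for skeletal muscle (2.01), kidney (1.82), chromaffin (0.80) and platelet markers (0.375), and negative for the other marker lists. The part of any of these cell types in the differences was not tested. Itga5 (0.42) and Itga9 (0.43) were higher in pup 2 by less, and Lamb1 (0.165) and Lama4 (0.14) by less again. Itgb1 (-0.04), Dag1 (0.02), Itga3 (0.05), Itga8 (0.06) and Itga1 (-0.04) were close to level.

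Several scarce genes were also higher in pup 2. Lama1 had 117 and 398 counts, 3.21-fold apart after scaling (log2 interval 1.38 to 1.99). Lamc3 had 110 and 282 counts (2.42-fold, 0.95 to 1.60). Itgb7 had 30 and 74 counts (2.33-fold). Itgae had 3 and 19 counts, a log2 ratio of 2.39 with an interval of 0.81 to 4.98. Itgax had 0 and 23 counts and Itgb6 0 and 14 counts. Against a floor of 3 counts per library in place of the 0, Itgax was at least 7.23-fold and Itgb6 at least 4.40-fold higher in pup 2. The exact binomial intervals allowed smaller differences, with lower ends of 2.44 and 1.65 on the log2 scale, and the quantifier's TPM intervals of Itgb6 overlapped (0.0904 to 0.947 and 0.252 to 1.35). Itga2 had a log2 ratio of 0.89 (interval 0.65 to 1.14). Kidney markers, none of 7 at TPM 1 in both pups, were led by Cdh16 (0.67 and 3.75 TPM) and Aqp2 (0.92 and 3.50 TPM). Of the 4 kidney markers with enough counts, 3 were at least 2-fold higher in pup 2, against 6.03% of all genes. Their median log2 ratio was 1.82. The simple epithelium markers were led by Krt19 (25.4 and 31.2 TPM) and Krt18 (15.4 and 13.9 TPM). Of the 5 simple epithelium markers 2 were higher in pup 2 by scaled counts, both at least 2-fold, and 3 in pup 1. The log2 ratios of the 5 had a median of -0.03. The part of these tissues in the values of Lama1 and Itga2 was not tested.

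Other genes were higher in pup 1. Itga7 had 722 and 340 counts, a log2 ratio of -1.17 with an interval of -1.36 to -0.98. Itga10 (-0.92), Lama2 (-0.85), Itgb8 (-0.79), Agrn (-0.65), Itgb4 (-0.60), Nid1 (-0.59) and Lama5 (-0.57) followed, all within 2-fold. Lamb3 (-0.43), Lamb2 (-0.41), Itgam (-0.36) and Nid2 (-0.29) were also higher in pup 1. In the same direction lay all 7 markers of Schwann cells and glia, whose sum was 178 TPM in pup 1 against 93.4 in pup 2, led by Fabp7 (125 and 54.2 TPM). All 6 stroma and capsule markers, led by Col3a1 (574 and 591 TPM) and Col1a1 (492 and 490 TPM), had negative ratios as well, with a median of -0.84. The 5 skeletal muscle markers with enough counts, a tissue known for Itga7 and Lama2, had the opposite direction with a median of 2.01, led by Acta1 (42.3 and 163 TPM) and Tnnt3 (7.63 and 41.2 TPM). The part of these cell types in the values was not tested.

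Some values are less certain than their counting intervals. Another annotated gene overlaps 21 of the 40 genes, a protein-coding one in 8 cases (Itga1, Itga4, Itga7, Itga10, Itgae, Itgam, Lamb3 and Nid2), and how strand was handled in counting is not stated in the labels or files. The deposited TPM lay outside the quantifier's interval in at least 1 pup for Lamb3, Itgb1, Itgax and Itgb6.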

How the data were processed

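Total RNA-seq of 2 newborn adrenal libraries (1 group) was analysed. The authors deposited expected counts, TPM and FPKM per gene and transcript, isoform percent, and the quantifier's intervals of these values (signal bounds) and posterior SD (a score), per the file headers. The deposited text names mm10 and GENCODE M4. The aligner and the quantifier: not given in the sources used here. Symbols, coordinates and coding lengths were matched by Ensembl identifier to GENCODE M21, also mm10 (42462 of 43346 rows). Of 78 coding transcripts used, 12 had another length in M21. Numbered rows (2.65e-05% and 9.59e-05% of counts) and spike-ins (0.0138% and 0.0025%) were left out of library sizes.

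Expected counts were rounded, scaled by TMM in edgeR 4.0.16 (R 4.3.3), and given a pseudocount of 0.5 for log2 ratios, at a mean count of at least 10. Folds use scaled counts without it. Scripts were tested on simulated data. The remaining code ran under python 3.11.15 with scipy 1.17.1, pandas 2.3.3, numpy 2.4.6 and, for plots, matplotlib 3.10.9. DESeq2 1.42.0 size factors were an alternative. No promoter or protein sequence was used. The genes, lists, trimers, pairs and named-gene rule (every one of the 40, the 4 highest and up to 3 under TPM 1 of other lists, the 2 highest markers) were chosen with earlier results of these data known. The alternatives are given in the closing section. A few genes of the set and of the lists are not reported here, although the counts include them.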

Additional observations from a re-analysis of the deposited data

How the results depend on the processing

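No paired analysis was possible because both libraries belong to 1 group. With a TPM minimum of 5, 18 genes in place of 29 passed in both pups. By coding transcripts, a measure chosen after seeing the data, the share of Lama5 was 8.74%, that of Lamc1 88.3% and that of Itgav 9.49% (against 22.7%, 93.1% and 39.8%), and Itga6 took the lead among alpha subunits. Without pup 1 or pup 2, the share of Lama4 ran from 40.2% to 56.2% and that of Itgb1 from 58.4% to 70.8%. Spike-in scaling gave a median log2 ratio of 2.65, with 39 genes higher in pup 2, 39 at least 2-fold higher there and 0 in pup 1, and turned Itga7 to 1.40. These spike-in totals rest on 5717 and 1022 counts. By ratios of deposited TPM the median was 0.42 and 0 genes were at least 2-fold higher in pup 1. With a mean count of at least 100, 3 in place of 6 were at least 2-fold higher in pup 2, since fewer genes entered. At 1.5-fold, 7 in place of 1 were higher in pup 1. The cause of the shifts under spike-in and TPM scaling was not tested. The other 92 summary values stayed within the spread between pups, the typical counting interval or 1.5 times the count, among them those from DESeq2 size factors, upper-quartile and total-count scaling, a pseudocount of 5, posterior mean counts and FPKM. Single genes were less stable, with 134 values moved and 1 reversed against 377 that stayed. Total-count scaling took the log2 ratio of Itgb5 from 0.90 to 1.01 and that of Itgb1 from -0.04 to 0.07. TPM over nuclear protein-coding genes moved the levels of 29 genes, and coding transcripts those of 13. With 1 library per pup, the ratio intervals cover counting error only, and the difference between pups has no replicate check.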

Other observations

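The adaptor and kinase genes that join integrins to the actin cytoskeleton were read in both pups, 16 of 18 at TPM 1 or more in both. Ilk, the scaffold of the integrin adhesion complex, led at 168 and 196 TPM (pups 1 and 2). Next came the kindlin Fermt2 (57.8 and 73.9 TPM), Itgb1bp1, which binds the Itgb1 tail (53.1 and 62.7 TPM), and the Ilk partner Lims1 (46.8 and 64.5 TPM). Fermt1, the kindlin of epithelia, was under TPM 1 in both (0.53 and 0.65 TPM). None of the 18 lay 2-fold apart by scaled counts, against 15.8% of all genes, and their median log2 ratio was -0.08.

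Ligands of integrins outside the laminins had a median log2 ratio of -0.58, with 10 of 14 higher in pup 1, beside 9291 of 18654 among all genes. Fn1, fibronectin, had 48.4 and 46.2 TPM, Ccn1 49.8 and 22.1 TPM, Vtn, the liver-made vitronectin, 39.8 and 31.4 TPM, and Icam2, a ligand of leukocyte integrins, 17.5 and 28.7 TPM. Ccn1 (-1.56) and Tnc (-1.08) were over 2-fold higher in pup 1, against 9.75% of all genes, and Cdh1 (1.24) in pup 2, against 6.03%. Madcam1, a ligand of the pair of Itga4 with Itgb7, was under TPM 1 in both (0.38 and 0.25 TPM). Chromaffin markers, led by Chga (557 and 1522 TPM) and Chgb (265 and 791 TPM), summed to 1451 and 3495 TPM, and mural cell markers, led by Acta2 (41.3 and 36.6 TPM) and Kcnj8 (38.4 and 22.7 TPM), to 110.5 and 91.7 TPM. Liver markers were led by Trf (705 and 566 TPM) and Apoa1 (607 and 450 TPM).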
